A study of Homo sapiens with 8 samples.

Results

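The ATG8 proteins of the LC3 and GABARAP families, the ubiquitin-binding cargo adaptors of selective autophagy and their kinase TBK1 were followed through 10 genes of the 61806 in the deposited table, taken by gene symbol. They were 4 ATG8 genes (MAP1LC3B, GABARAP, GABARAPL1 and GABARAPL2), 5 adaptor genes (SQSTM1, NBR1, OPTN, CALCOCO2 and TAX1BP1) and TBK1, and all 10 were expressed highly enough to be tested. The cells were wild-type N/TERT-1 keratinocytes, a human epidermal line that was immortalized, grown as a culture and not as layered epidermis. They were treated with ethanol, the solvent control, in 4 libraries, or for 4 hours with O/A, a mixture of oligomycin, which blocks the mitochondrial ATP synthase, and antimycin A, which blocks complex III of the respiratory chain, in another 4 libraries. The libraries are labelled as biological replicates of this 1 line, so the p-values measure the spread between its cultures and not between donors. The comparison asks how the mRNAs that encode the machinery for capturing damaged mitochondria changed when mitochondria were depolarized.

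ATG8 proteins are small ubiquitin-like proteins that are attached to a lipid of the growing autophagosome membrane. Cargo such as a damaged mitochondrion is first marked with ubiquitin chains, and an adaptor then holds the ubiquitin with one domain and an ATG8 protein with a short LC3-interacting motif, so that the membrane closes around the cargo. TBK1 is recruited with the adaptors and phosphorylates several of them, OPTN and SQSTM1 among them, which strengthens their binding. The adaptors that hold cargo are themselves degraded with it in the lysosome.

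Library totals were 17210404 to 20999927 counts for ethanol and 17689760 to 19263046 for O/A. The 10 genes took 0.11% to 0.116% of the ethanol counts and 0.165% to 0.173% of the O/A counts. Pairs within a condition gave a chi-square of 1.69 to 5.13 per degree of freedom, above sampling noise, so no library is a copy of another. That each comes from a separate culture rests on the labels, since this value cannot show it. All 8 keratinocyte markers were present, with a summed level of 3330 to 3570 FPKM with ethanol and 3070 to 3230 FPKM with O/A. FPKM is a count divided by exonic gene length and by library total. Summed levels reached at most 0.66 FPKM over 4 melanocyte markers, with MLANA and TYR at 0 and 0.06 FPKM over 3 endothelial markers. The summed level of 3 leukocyte markers was 0.4 to 0.59 FPKM for ethanol and 0.65 to 0.88 for O/A, without overlap. Nearly all of it came from CD68. PTPRC, a marker of leukocytes in general, and CD3E, a marker of T cells only, had at most 0.02 FPKM in any library. Of 5 fibroblast markers only COL1A1 was above 1 FPKM, and the summed level was 2.38 to 2.94 FPKM with ethanol and 2.4 to 2.62 FPKM with O/A.

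Of the 10 genes 6 rose in O/A. MAP1LC3B and SQSTM1 more than doubled, GABARAPL1, CALCOCO2, TAX1BP1 and OPTN rose by smaller amounts, and TBK1, GABARAPL2, GABARAP and NBR1 stayed within the fold change threshold. A gene was called when edgeR's quasi-likelihood test gave it an adjusted p-value of 0.05 or less, over 14893 genes, and its absolute log2(FC) was above 0.25, the threshold of the study. By this rule 6 of 10 genes were called higher and 0 were called lower, where 15.8% of all genes tested were called higher and 18.9% lower. With the adjusted p-value alone, 10 of 10 lay higher, where 26.0% of all genes did. After scaling of the libraries, every O/A library lay above every ethanol library for 9 of the 10 genes, GABARAP being the exception, and for 22.8% of all genes tested. The median log2(FC) was 0.36 over the 10 genes and -0.0004 over all genes tested. A level here is a share of the library, so more mRNA of a gene and less of the other RNA in a cell cannot be told apart, nor can a change in each cell and a change in which cells were present.

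**Figure D1:**
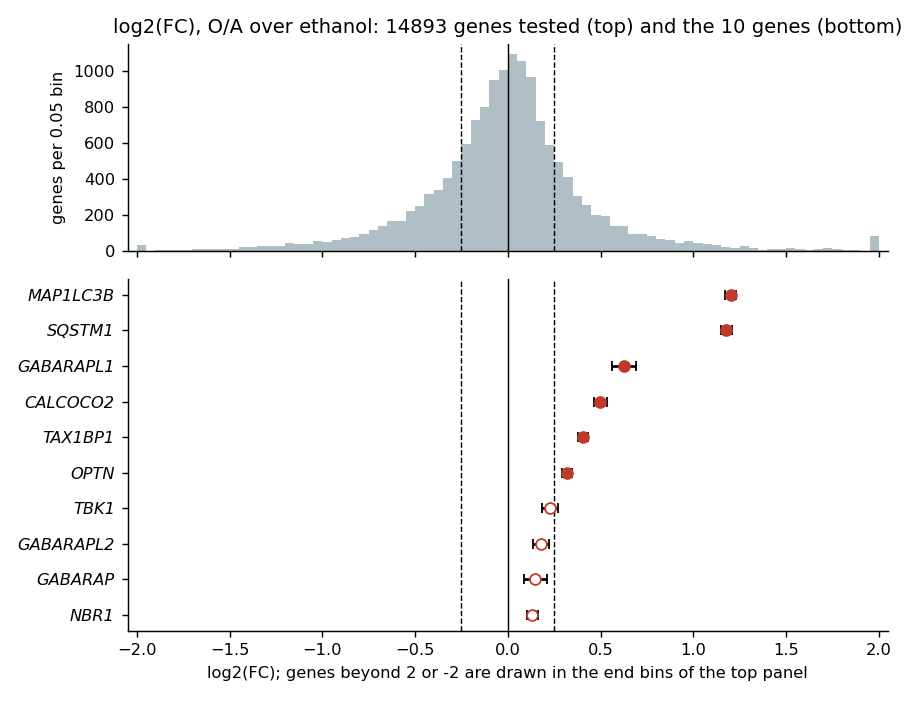
The top panel counts the 14893 genes tested by their log2(FC) of O/A over ethanol, in bins of 0.05. The bottom panel gives the log2(FC) of the 10 genes with its standard error as a bar, filled where the gene was called, and dashed lines mark the threshold of 0.25 in each direction. All 10 points lie to the right of 0, with MAP1LC3B (1.20) and SQSTM1 (1.18) far from the bulk of genes.

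Among the ATG8 genes, MAP1LC3B, which encodes LC3B, the protein most used to mark autophagosomes, rose most. It had 23.71, 24.02, 24.51 and 23.72 FPKM in ethanol replicates 1 to 4 and 55.25, 52.35, 54.67 and 51.55 FPKM in O/A. The lowest O/A library was thus above the highest ethanol library by a wide margin compared with the spread within either condition. Its log2(FC) was 1.20 (standard error, SE, 0.0293, adjusted p = 1.11e-36 in edgeR's test), which is 2.30-fold. It ranked 251 among all genes tested by log2(FC), above 98.3% of them.

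GABARAPL1, a member of the GABARAP family whose mRNA is known to respond to nutrient and stress signals, was the only one of its family to rise past the threshold. It had 4.43, 4.20, 4.89 and 4.16 FPKM with ethanol and 6.37, 6.39, 7.10 and 6.53 FPKM with O/A, and the conditions did not overlap. The log2(FC) was 0.63 (SE 0.0628, adjusted p = 2.5e-12), or 1.54-fold. It had the lowest level per length of these 4 ATG8 genes in both conditions, and its 299 to 354 counts per ethanol library make it less precise than MAP1LC3B.

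GABARAPL2, which encodes the protein also called GATE-16, had 15.82, 15.73, 15.48 and 14.27 FPKM with ethanol and 17.86, 16.74, 16.28 and 16.31 FPKM with O/A. These values do not overlap, although the gap between them was narrow, and the log2(FC) was 0.18 (SE 0.0451, adjusted p = 0.000659), within the threshold. GABARAP itself, the founding member of its family, had 14.98, 12.95, 14.68 and 15.89 FPKM with ethanol and 16.37, 14.44, 17.35 and 14.78 FPKM with O/A. The conditions overlapped. Its log2(FC) of 0.15 (SE 0.0622, adjusted p = 0.0439) was within the threshold, and its adjusted p-value was above 0.05 in 9 of 15 alternatives, up to 0.252. GABARAP was the most variable of the 10 genes, with a coefficient of variation of 8.51% in ethanol and 8.87% in O/A, where counting alone gives 4.34% and 4.21%.

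Among the adaptors, SQSTM1 rose most. It encodes p62, an adaptor that gathers ubiquitinated cargo into condensates and also holds KEAP1, the inhibitor of the antioxidant factor NRF2. It had 27.22, 26.34, 26.64 and 26.03 FPKM with ethanol and 57.57, 55.78, 60.75 and 58.80 FPKM with O/A. No O/A library came near the ethanol libraries. The log2(FC) was 1.18 (SE 0.0281, adjusted p = 3.61e-37), or 2.26-fold, and SQSTM1 passed OPTN to become the gene with the highest level per length of the 10.

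CALCOCO2 encodes NDP52, an adaptor that binds damaged mitochondria and invading bacteria. It had 11.14, 11.10, 11.25 and 10.40 FPKM with ethanol and 14.84, 15.29, 15.61 and 14.25 FPKM with O/A, without overlap, for a log2(FC) of 0.50 (SE 0.0343, adjusted p = 6.63e-18). TAX1BP1, its relative in sequence and function, had 27.12, 26.30, 27.32 and 25.43 FPKM with ethanol and 34.83, 33.65, 34.75 and 32.82 FPKM with O/A, and its log2(FC) was 0.40 (SE 0.0279, adjusted p = 7.62e-18). The relatives therefore rose by similar amounts, 1.41-fold and 1.32-fold, and in both genes ethanol replicate 4 and O/A replicate 4 were the lowest of their condition.

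OPTN encodes optineurin, an adaptor for ubiquitinated mitochondria and the one most closely tied to TBK1. It had 33.95, 33.36, 34.30 and 33.18 FPKM in ethanol, the highest of the 10 genes there, and 40.88, 39.87, 42.20 and 39.90 FPKM in O/A. The rise was small and regular, with a log2(FC) of 0.32 (SE 0.0284, adjusted p = 6.23e-14). It stood nearest to the threshold of the genes called, but its call was kept in 15 of 15 alternatives, with a log2(FC) of 0.27 to 0.34.

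NBR1, an adaptor that shares its domain layout with p62 and acts with it, had 17.69, 18.79, 19.33 and 18.45 FPKM with ethanol and 20.05, 19.96, 19.85 and 18.95 FPKM with O/A. On this scale O/A replicate 4 fell among the ethanol libraries, whereas after scaling of the libraries all 4 O/A values lay above the ethanol values. The log2(FC) was 0.13 (SE 0.0301, adjusted p = 0.000191), the smallest of the 10 and within the threshold.

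TBK1, the kinase, had 3.63, 3.45, 3.70 and 3.34 FPKM with ethanol and 4.06, 4.11, 3.96 and 3.85 FPKM with O/A. Its conditions did not overlap, and its log2(FC) of 0.23 (SE 0.0421, adjusted p = 8.7e-06) lay just inside the threshold. It had the lowest level per length of the 10 genes in both conditions.

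In order of level per length, ethanol cells had OPTN first, followed by SQSTM1, TAX1BP1, MAP1LC3B, NBR1, GABARAPL2, GABARAP, CALCOCO2, GABARAPL1 and TBK1. The library values of SQSTM1 and TAX1BP1 overlapped, as did those of GABARAPL2 and GABARAP, and the other neighbours in this order did not. In O/A the order was SQSTM1, MAP1LC3B, OPTN, TAX1BP1, NBR1, GABARAPL2, GABARAP, CALCOCO2, GABARAPL1 and TBK1, where GABARAP overlapped with GABARAPL2 and with CALCOCO2. The exonic size used for FPKM joins the exons of all isoforms, from 1951 bases for GABARAP to 14716 for TBK1, so genes with long rare isoforms are set too low in this order.

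The unequal changes altered the make-up of each mRNA pool. The summed level of the 4 ATG8 genes was 58.4 ± 1.16 FPKM with ethanol and 92.6 ± 3.53 FPKM with O/A (SD, n = 4 libraries per condition), and that of the 5 adaptor genes was 116 ± 2.25 and 168 ± 4.03 FPKM. MAP1LC3B made up 41.1% ± 0.828 of the ATG8 sum in ethanol and 57.7% ± 0.379 in O/A (SD, n = 4), a gain of 16.6 percentage points. The share of GABARAP fell by 8.08 points, from 25.0% to 17.0%, and that of GABARAPL2 fell by 8.11 points, from 26.3% to 18.2%, although the FPKM mean of neither was lower in O/A. GABARAPL1 held 7.57% ± 0.451 in ethanol and 7.13% ± 0.351 in O/A, a difference of -0.439 points that did not pass the test (exact permutation test, two-sided, p = 0.171, adjusted p = 0.171). That difference was -0.226 points when ethanol replicate 3 was left out and -0.278 when O/A replicate 1 was, and on TMM-scaled counts not divided by length it was -1.3 points and passed (exact permutation test, adjusted p = 0.0321). On such counts the share of GABARAP fell by 5.24 points.

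Among the adaptors the share of SQSTM1 went from 22.8% ± 0.347 to 34.7% ± 0.816 (SD, n = 4 per condition), a gain of 11.9 points. The share of OPTN fell by 4.68 points, that of NBR1 fell by 4.21 and that of TAX1BP1 fell by 2.52. CALCOCO2 had 9.43% ± 0.183 in ethanol and 8.95% ± 0.275 in O/A, and its difference of -0.484 points did not pass (exact permutation test, p = 0.0571, adjusted p = 0.0643). For each of the other 7 shares the conditions did not overlap (exact permutation test, two-sided, p = 0.0286, the smallest that 4 libraries against 4 allow, adjusted p = 0.0367 over 9 shares). Shares of one sum are not independent of each other.

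Of 46 other genes of the pathway, in 6 lists, 44 were tested, and 10 were called higher, 6 lower and 28 were not called, with a median log2(FC) of 0.06. These counts lay near the shares over all genes tested, of which 15.8% were called higher and 18.9% lower, and nothing particular to the lists is read from them. The remaining ATG8 genes gave little signal. MAP1LC3A and MAP1LC3C had at most 9 counts in any library, too few to be tested. MAP1LC3B2, a near copy of MAP1LC3B on another chromosome, went from 28 to 37 counts per ethanol library to 65 to 78 per O/A library and rose with a log2(FC) of 1.11 (SE 0.164, adjusted p = 7.76e-08). Its counts were 1.26% to 1.62% of those of the pair in ethanol libraries and 1.29% to 1.45% in O/A. Reads of near copies may not be separable, which was not tested here, so its value is uncertain.

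Of 11 genes that process ATG8 proteins or attach them to lipid, 2 rose and 0 fell, with 15.8% and 18.9% over all genes. ATG4D, one of the proteases that trim ATG8 proteins and release them again, had a log2(FC) of 0.42 (SE 0.0712, adjusted p = 1.63e-06). ATG12, the ubiquitin-like part of the complex that directs lipid attachment, had 0.34 (SE 0.038, adjusted p = 8.5e-11). ATG7, the activating enzyme, and ATG4C had values of -0.22 and -0.21, within the threshold. They were called lower on log2(FPKM + 0.1), with -0.26 and -0.25. In that fit the median over all genes tested was itself lower, at -0.0428 rather than -0.0004. ATG4C was also called lower without ethanol replicate 4 (-0.26).

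Of 18 other receptors and linkers that bind ATG8 proteins, 2 rose and 2 fell, where 15.8% of all genes rose and 18.9% fell, and the mitochondrial ones among them, BNIP3 (-0.13), BNIP3L (0.03), FUNDC1 (0.02), FKBP8 (-0.07), BCL2L13 (0.08) and PHB2 (-0.02), were not called. The ER receptors CCPG1 (0.48, SE 0.0808, adjusted p = 1.55e-06) and CALCOCO1 (0.32, SE 0.0453, adjusted p = 4.94e-08), the latter a relative of CALCOCO2, were called higher. NCOA4, the receptor for ferritin, was the most highly expressed of the list with 70.7 ± 4.26 FPKM for ethanol and 56.6 ± 2.66 FPKM with O/A (SD, n = 4 each), with a log2(FC) of -0.27 (adjusted p = 2.63e-06) that went to -0.23 without ethanol replicate 3. STBD1, a receptor for glycogen, had a log2(FC) of -0.50 (adjusted p = 0.0328) on 22 to 53 counts per library, and its call was lost in 8 of 15 alternatives. CALCOCO1 had 0.23 on log2(FPKM + 1), within the threshold, where the median over all genes tested was -0.0279.

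Of 4 genes for partners of TBK1 or its related kinase, 2 rose and 1 fell, beside 15.8% and 18.9% of all genes. TANK, a scaffold of TBK1, rose with a log2(FC) of 0.80 (SE 0.0389, adjusted p = 6.01e-24), from 9.18 ± 0.353 to 15.5 ± 0.317 FPKM (SD, n = 4 per condition), and the scaffold AZI2 rose with 0.43 (SE 0.0396, adjusted p = 1.3e-13). TBKBP1, another scaffold, fell by 0.59 on the log2 scale (adjusted p = 0.000221) at a low level of 46 to 99 counts per library. IKBKE, the kinase related to TBK1, had -0.10 and was not called.

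Of 5 genes whose products work with p62, 1 rose and 2 fell, beside 15.8% and 18.9% of all genes. NFE2L2, which encodes NRF2, rose with a log2(FC) of 0.89 (SE 0.0291, adjusted p = 3.37e-31), from 11.0 ± 0.383 to 19.9 ± 0.59 FPKM (SD, n = 4 per condition), while KEAP1, which marks NRF2 for degradation, fell by 0.35 on the log2 scale (adjusted p = 2.99e-08). WDR81, a cofactor of p62 in aggregate clearance, fell by 0.79 (adjusted p = 7.65e-14). HDAC6 (0.24) and TRAF6 (0.14) were not called, and HDAC6 passed the threshold without ethanol replicate 4 (0.25), O/A replicate 2 (0.26) or O/A replicate 3 (0.26). Of 5 effectors that bind ATG8 proteins, 2 rose and 1 fell, beside 15.8% and 18.9% of all genes. PLEKHM1, a tether for lysosomes (0.74, adjusted p = 1.81e-19), and TBC1D15, a GTPase-activating protein of mitochondria (0.43, adjusted p = 4.73e-10), rose. TECPR2 fell by 0.45 (adjusted p = 3.81e-09), and FYCO1 (-0.10) and TBC1D5 (0.16) were not called.

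The 10 genes lie on 6 chromosomes, 3 of them on chromosome 17 (GABARAP, NBR1 and CALCOCO2) and 2 each on chromosomes 12 and 16. MAP1LC3B lies at chr16:87383953-87404779 and SQSTM1 at chr5:179806398-179838078 of GRCh38, both on the plus strand. Of the 10 loci 9 overlap another annotated gene, 17 such genes in all, and the setting of the counting for strand is not given in the sources used here, so reads in a shared stretch cannot be assigned with certainty. The overlapping genes with more than 200 counts in a library were FBXO31 with MAP1LC3B, MGAT4B and MRNIP with SQSTM1, and JAZF1 with TAX1BP1, all on the opposite strand. FBXO31 (log2(FC) -0.36), MGAT4B (-0.34) and JAZF1 (-0.69) went down while their neighbours rose, and MRNIP had 0.25. The counts of MGAT4B amounted to 69.0% of those of SQSTM1 in ethanol and 24.1% in O/A, and the genes share 555 bases. No read was counted on the pseudogenes MAP1LC3BP1, SQSTM1P1 and GABARAPL3.

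The sequence around the RefSeq gene starts was searched for 3 short motifs, each read by factors known to act on autophagy or stress genes. They were CACGTG (the E-box within the element read by TFEB and its relatives), TGACNNNGC (the core of the antioxidant response element read by NRF2) and TGATGNAA (the core of the element shared by C/EBP and ATF4), where N is any base, on both strands of the RefSeq windows of GRCh38.p14 from 250 bases before to 50 after each start. All 10 genes had a window, 15 in all. The E-box was found in 1 of the 15 windows (6.67%), against 7.26% of 35116 windows of all genes, and the antioxidant core in 2 of 15 (13.3%), against 13.3%. The C/EBP and ATF4 core was in 0 of 15 and in 3.62% of all windows. The motifs were thus found about as often in these windows as in all windows, and a match is only a run of letters. The matches are shown with 10 bases on each side and the motif in capitals, at chr16:87392280-87392308, chr17:48830896-48830924 and chr12:64452079-64452104, all read on the plus strand, the motif of CALCOCO2 being on the minus strand.
MAP1LC3B: gcgagtcaccTGACCAGGCtgcgggctga
CALCOCO2: cgctcctgggGCCCGGTCAcctgaacact
TBK1: ggccgtcggtCACGTGgcctccggcc
The match of MAP1LC3B begins at position -46 from the start site, that of CALCOCO2 at -129 and that of TBK1 at -31. These positions refer to the RefSeq start, which for MAP1LC3B lies inside the locus given above. For MAP1LC3B and TBK1, annotated exons of either strand cover all 250 bases before that start, so their matches lie in annotated exons.

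SQSTM1, the other gene that more than doubled, had none of the 3 motifs in any of its 3 windows. The stretch before its most downstream start that no annotated exon covers, chr5:179820707-179820877 on the plus strand, is shown because it is GC-rich and free of these letters, and its window has a GC content of 73.0%, where the median of all windows is 58.7%.
SQSTM1: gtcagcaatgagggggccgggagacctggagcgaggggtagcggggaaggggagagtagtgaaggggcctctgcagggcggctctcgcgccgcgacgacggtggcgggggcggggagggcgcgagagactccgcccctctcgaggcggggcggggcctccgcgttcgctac
Windows of MAP1LC3B (75.7%) and SQSTM1 were GC-rich. So were those of genes that did not double, OPTN (66.3% and 75.7%), GABARAPL2 (69.0%) and TBK1 (68.3%). CALCOCO2 (59.7%) and GABARAP (59.3%) lay near the median, and GABARAPL1 (51.7%) and NBR1 (53.0% and 56.3%) below it. The windows of TAX1BP1 had 33.0% and 60.0%.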

How the data were processed

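mRNA was measured in 8 libraries, and the condition of each was taken from its label. Treatment time was taken from the paper, since the labels state neither dose nor time. Per the submitters' processing notes, the authors aligned reads to GRCh38.p13 with HISAT2 2.0.1 and counted them with HTSeq 0.6.1. The deposited counts are raw. The deposited FPKM derive from these counts, since each value lay within 0.005 of the count divided by exonic size and library total. The authors' DESeq2 table of fold changes and p-values was not used.

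Counts were scaled by TMM and tested with edgeR 4.0.16 (robust quasi-likelihood) in R 4.3.3 over 14893 genes that reached 10 counts in 4 or more libraries. P-values were adjusted by Benjamini-Hochberg. Standard errors were derived from the log2(FC) and its F statistic. Shares were compared by an exact permutation test. Alternatives were DESeq2 1.42.0, limma 3.58.1 on log2(FPKM + 0.1) and log2(FPKM + 1), median-ratio and upper-quartile scaling, no filter, other fold change thresholds, a replicate block and each library left out. The fits were tested on simulated data. The genes, lists and tests were chosen with earlier results of these data known. All 10 genes were named, with up to 2 rises and 2 falls of each list and all genes of lists of 5 or fewer, and further genes of the longer lists were named after their values were seen. Counting error and the number of libraries limit the precision, most for GABARAPL1 and GABARAP.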

Additional observations from a re-analysis of the deposited data

Results flagged for a closer look

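Dixon's test at the 95% level, run on 38 sets of 4 replicate values, found a distant value in 3 of them, where chance gives 1.9. As TMM-scaled CPM, the O/A values of NBR1 were 170 to 171 apart from replicate 4, at 162, and CALCOCO2 had 85.2 in ethanol replicate 4 against 90.9 to 91.6. NBR1 made up 15.1% of the summed FPKM of the adaptors in ethanol replicate 1 against 16.2% to 16.3% in the others. Without these libraries in turn, the log2(FC) of NBR1 stayed between 0.11 and 0.15 and that of CALCOCO2 between 0.47 and 0.52.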

How the results depend on the processing

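The calls of the 10 genes were the same in all 15 other fits, as were their directions. Without a fold change threshold 10 genes were called (10 higher), with an absolute log2(FC) above 1 it was 2 (2 higher), MAP1LC3B and SQSTM1. For the related genes these counts were 30 (19 higher, 11 lower) and 1 (1 higher, 0 lower), and for all genes 7999 (3868 higher) and 797 (382 higher, 415 lower). On log2(FPKM + 1), 1514 genes were called higher, and the cause was not tested. With each library left out, 6 members were called each time, 14 to 17 related genes and 4987 to 5114 of all genes. GABARAP had an adjusted p of 0.00874 to 0.221 in those fits, and its log2(FC) went from 0.15 to 0.10 without ethanol replicate 2 or O/A replicate 3. The share of GABARAPL1 differed by -1.3 points when taken from TMM-scaled counts not divided by length, and then passed the test (exact permutation, adjusted p = 0.0321). The other shares kept their side of the threshold on such counts, and all 9 kept their direction when a library was left out.

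No pairing by replicate number was seen. Deviations of same-numbered libraries correlated between -0.0281 and 0.0744 and those of other pairs between -0.15 and 0.105. These correlations cannot exclude that same-numbered cultures were handled together. With the replicate block 6 members were called, 16 related genes and 5160 of all genes. Depth limits MAP1LC3A and MAP1LC3C, which could not be tested, and STBD1, MAP1LC3B2 and TBKBP1, whose changes are imprecise. The calls of MAP1LC3B2 and TBKBP1 were kept in 15 of 15 alternatives, with a log2(FC) of 0.61 to 1.17 and of -0.63 to -0.31.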
